A study of Mus musculus with 15 samples.

Results

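The transcripts of 10 genes of inflammatory signalling were followed through mouse bone marrow with and without acute myeloid leukaemia (AML): the cytokines Il1a, Il1b, Il18, Il6, Tnf, Osm and Il10, the interleukin-1 receptor antagonist Il1rn, the inflammasome sensor Nlrp3 and the protease Casp1. They were taken by symbol from a table of 38315 genes, and each symbol named 1 row. Of the 10, 9 passed a filter on low values (at least 10 normalized counts in at least 4 libraries) and were tested. Il10 reached 10 in 3 libraries and was not tested with the others.

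Interleukin-1 beta and interleukin-18 are made as inactive precursors. An inflammasome, built when a sensor such as NLRP3 recruits an adaptor protein, activates caspase-1, which cleaves both precursors. Transcription of Il1b and Nlrp3 is commonly induced through NF-kB after a Toll-like receptor or cytokine signal, and the receptor antagonist encoded by Il1rn occupies the interleukin-1 receptor without signalling. In marrow, monocytes and neutrophils are known sources of these transcripts, and interleukin-1, TNF and interleukin-6 act on haematopoietic stem and progenitor cells. A transcript level shows neither cleavage nor secretion of the protein.

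The AML group comprised 7 leukaemic bone marrows from mice of the genotype NUP98-NSD1/FLT3-ITD, which combines a fusion of a nucleoporin gene with a histone methyltransferase gene and an internal tandem duplication in the receptor tyrosine kinase gene FLT3. Wild-type mice gave 4 whole marrows and 4 lineage-negative marrows, from which most mature blood cells are removed by their surface antigens, as reference groups. Neither reference group carried either allele, and the labels name no treatment. Mice of both genotypes were kept in the animal facility from birth. Their age, sex and strain, what drives the alleles, and whether each library came from a separate animal are not given in the sources used here, so the p-values measure the spread between these libraries. Total RNA was sequenced, and all levels are normalized counts, meaning read counts divided by a size factor per library. Errors (±) are standard deviations between libraries, with n = 7 for AML and n = 4 for either reference group.

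The libraries held an estimated 20.3 to 35.1 M reads (M, mega) in AML, 11.4 to 17.2 M in whole marrow and 20.3 to 28.1 M in lineage-negative marrow. A floor of 3 reads corresponded to 1.96 to 4.09 normalized counts. The median gene was higher by 0.67 (log2) in AML than in whole marrow, by 0.02 in AML than in lineage-negative marrow and by 0.59 in lineage-negative than in whole marrow. Differences to whole marrow are for this reason also reported after subtraction of this median, as relative differences, and after scaling by the trimmed mean of M values (TMM). Whole marrow also carried a mean of 7.14 to 13.5 normalized counts over 1452 olfactory and vomeronasal receptor genes, AML replicates 5 and 6 carried 1.33 and 3.81, and the other libraries carried 0.384 to 0.746. This level bears on low counts in whole marrow. In lineage-negative marrow the summed level of 11 neutrophil markers was 2117 to 18281, against 433801 to 1155570 in whole marrow. Of 8 progenitor markers, 7 were called higher there than in whole marrow and 1 lower (5 and 1 with TMM scaling). Over all genes 33.1% were called higher and 17.2% lower. The lower marker was Ly6a, at 61.7 ± 23.8 in lineage-negative and 180 ± 89.3 in whole marrow.

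AML marrow held more transcript of 6 of the 9 tested genes than lineage-negative marrow, namely Il1b, Il1rn, Il18, Tnf, Nlrp3 and Casp1, and less of 1, Il6. Calls come from a limma fit across 18941 genes and require a log2 difference of 1 or more in size together with an adjusted p under 0.05. Over all genes tested, 17.7% were called higher and 12.5% lower in this comparison. Against whole marrow, Casp1 and Nlrp3 were called higher and Il1b and Il6 lower in AML, beside 27.3% of all genes called higher and 11.3% lower. With TMM scaling, none of the 9 was called higher in AML than in whole marrow by limma (1 at an unadjusted p under 0.05) and 4 were called lower, Il1b, Il6, Il1rn and Osm, beside 6.01% and 15.1% of all genes. The other comparisons moved less with TMM scaling. AML against lineage-negative marrow kept 6 higher and 1 lower, beside 17.5% and 12.6% of all genes. Between the reference groups, Il6 was called higher in lineage-negative marrow, and Il1a, Il1b, Il1rn, Il18 and Tnf were called lower, beside 33.1% of all genes called higher and 17.2% lower. With TMM scaling 1 was higher and 6 were lower, Nlrp3 being added, beside 13.7% and 23.3%. The median log2 difference of the 9 genes was −0.52 between AML and whole marrow, 1.42 between AML and lineage-negative marrow and −1.27 between lineage-negative and whole marrow, beside the medians over all genes given above. The comparisons share libraries and are not independent of each other.

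**Figure D1:**
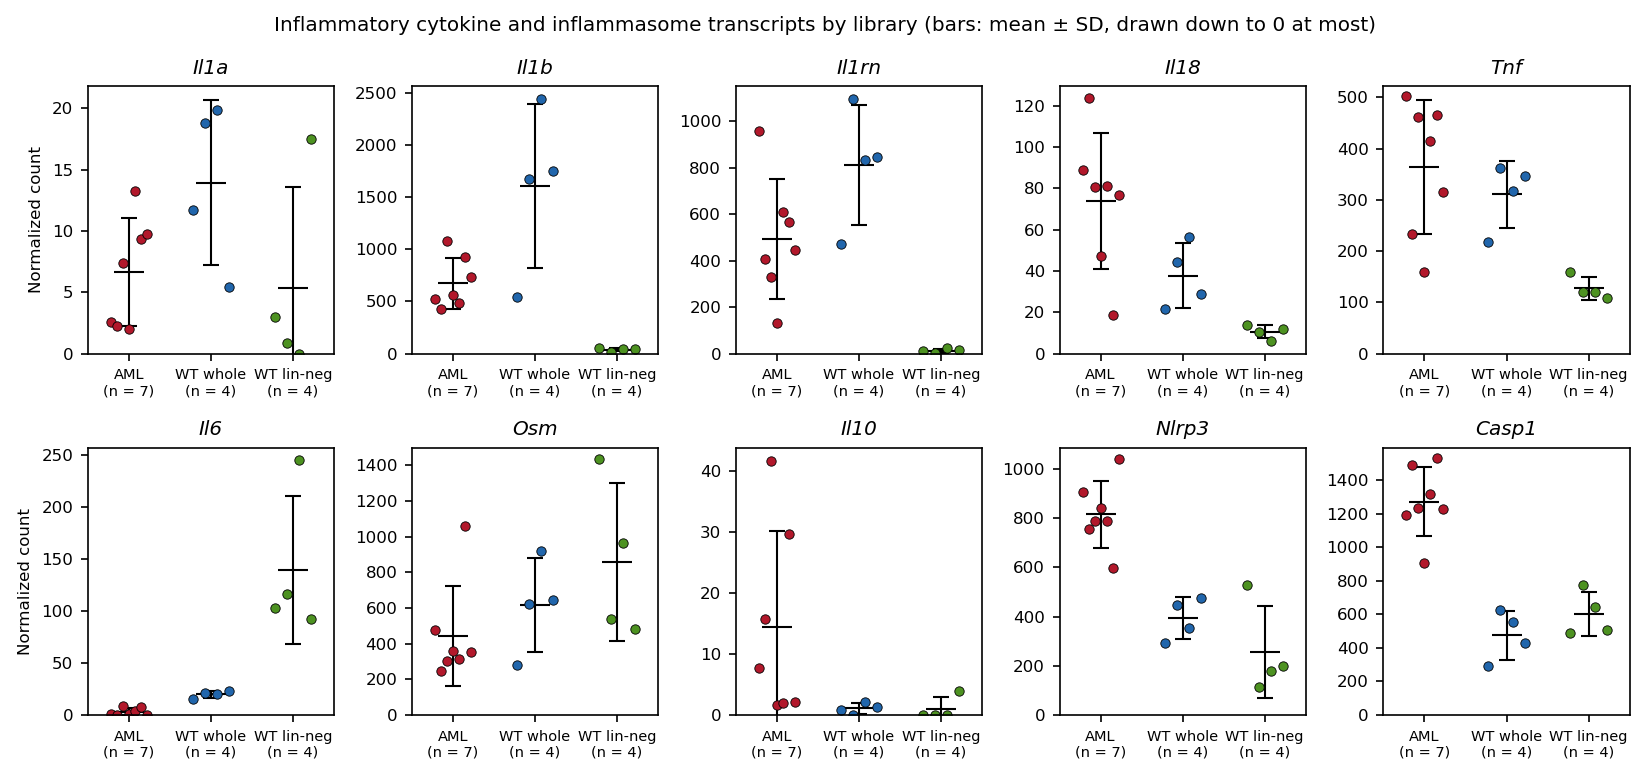
Normalized counts of the 10 genes in each library (y axis, linear, from 0) for AML, wild-type whole and wild-type lineage-negative (lin-neg) marrow (x axis). Points are libraries and bars are the mean ± SD. All 7 AML libraries lie above all reference libraries for Casp1 and Nlrp3 and below all reference libraries for Il6.

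Promoter sequences are shown for 3 genes, chosen after their values were seen, whose levels set the groups far apart: Il1b and Il1rn, which were low in lineage-negative marrow, and Il6, which was high there. Each is the 250 bases before the annotated start in RefSeq on GRCm38.p6, printed 5′ to 3′ on the strand of the gene. Capitals mark matches to the motifs searched on both strands: the NF-kB motif (GGG, 2 bases of any kind and TTTCC), the AP-1 motif TGANTCA, the C/EBP motif TTNNGCAA, the PU.1 motif GAGGAAGT and the TATA motif TATAAA. Il1b lies at chr2:129371140-129371389 on the minus strand, the Il1rn window before the third of its annotated starts at chr2:24345121-24345370 on the plus strand, and Il6 at chr5:30012864-30013113 on the plus strand.
Il1b: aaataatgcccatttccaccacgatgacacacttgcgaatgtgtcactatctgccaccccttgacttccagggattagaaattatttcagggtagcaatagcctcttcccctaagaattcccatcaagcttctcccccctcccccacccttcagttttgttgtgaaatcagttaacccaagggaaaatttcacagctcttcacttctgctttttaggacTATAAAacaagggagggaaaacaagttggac
Il1rn: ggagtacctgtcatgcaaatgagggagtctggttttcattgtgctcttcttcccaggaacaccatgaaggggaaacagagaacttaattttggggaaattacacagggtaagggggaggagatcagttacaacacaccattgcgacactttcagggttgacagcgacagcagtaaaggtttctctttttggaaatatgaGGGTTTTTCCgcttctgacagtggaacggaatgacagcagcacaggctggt
Il6: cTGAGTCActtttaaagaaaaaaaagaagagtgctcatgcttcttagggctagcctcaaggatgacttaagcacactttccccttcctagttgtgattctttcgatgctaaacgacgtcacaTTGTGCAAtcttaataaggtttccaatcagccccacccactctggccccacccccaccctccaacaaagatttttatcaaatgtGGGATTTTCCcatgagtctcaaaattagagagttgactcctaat
The Il1b window held TATAAA beginning at position −31, counted back from −1 at the base before the start. The printed Il1rn window, before start 3, held an NF-kB match at −51 and was the only Il1rn window with one. The window before start 1 held an AP-1 match at −141. That before start 2, which overlaps the printed window, held no match. The Il6 window held an NF-kB match at −44, a C/EBP match at −128 and an AP-1 match at −249, none overlapping another.

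Promoters were found for 8 of the 10 genes, with 11 windows in all because Il1rn has 3 annotated starts in the table and Nlrp3 has 2. The NF-kB motif occurred in 2 of the 11 windows, those printed for Il1rn and Il6, and in 1.41% of 32851 mouse promoter windows of the same length. AP-1 occurred in 3 windows (Il6, Il1a and another start of Il1rn) and in 6.75% of all. The C/EBP motif occurred in 1 window and in 9.56% of all, TATAAA in 4 and in 12.4%, and the PU.1 motif in 0 and in 2.44%. Tnf held TATAAA at −29 and Il1a at −32. These are matches of letters and not measured binding, and the Il1b and Il6 windows, whose genes had opposite orders over the groups, are not compared further.

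Il1b encodes interleukin-1 beta, the main secreted agonist of the interleukin-1 receptor. The table places it on chromosome 2 from 129206490 to 129213059. Its normalized count was lowest at 425, with a median of 560.2 and a highest value of 1078, in the 7 AML libraries, and it was 546, 1678, 2448 and 1752 in whole marrow replicates 1 to 4 and 51.7, 12.3, 39.7 and 45.0 in lineage-negative replicates 1 to 4. Every AML library exceeded every lineage-negative library, whereas AML and whole marrow overlapped because whole marrow replicate 1 was far below the other 3. That library was low in general, with a total of 1.02e+07 normalized counts against 1.79e+07 to 1.93e+07 in the other 3. The means were 675 ± 247 in AML, 1606 ± 787 in whole marrow and 37.2 ± 17.3 in lineage-negative marrow. AML was 18.1 times lineage-negative marrow on the ratio of means, a log2 difference of 4.24 (SE 0.39, limma adjusted p = 3.84e-08). Against whole marrow the log2 difference was −1.14 (SE 0.39, limma adjusted p = 0.0162), the relative difference −1.81 and the difference with TMM scaling −1.74. The call was lost without whole marrow replicate 3, the library with the most Il1b (−0.87, adjusted p = 0.0801). Lineage-negative marrow was far below whole marrow (−5.38, SE 0.44, adjusted p = 2.71e-08).

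Il1rn encodes the receptor antagonist and lies on chromosome 2 from 24226865 to 24241506 in the table. AML replicates ranged from 131 to 957 with a median of 445, whole marrow replicates 1 to 4 held 471, 1096, 831 and 846, and lineage-negative replicates 1 to 4 held 9.08, 1.76, 22.03 and 13.1. The lineage-negative libraries were all below every other library, and lineage-negative replicate 2 was under its floor of 3 reads. The log2 difference of AML to lineage-negative marrow was 5.46 (SE 0.49, limma adjusted p = 2.65e-08), the highest of the 9 genes in that comparison, and that of lineage-negative to whole marrow was −6.32 (SE 0.55, adjusted p = 5.40e-08). Against whole marrow AML had a log2 difference of −0.86 (95% interval −1.88 to 0.16, adjusted p = 0.130), with 4 of 7 AML libraries below all 4 whole marrows. With TMM scaling this difference was −1.46 (adjusted p = 0.0225) and was called lower.

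Agonist and antagonist transcripts were also set against each other within each library, on ratios of normalized counts that are not corrected for length. The ratio of Il1b to Il1rn was 0.543, 1.04, 3.28, 4.28, 0.792, 1.63 and 1.65 in AML replicates 1 to 7. It was 1.16, 1.53, 2.95 and 2.07 in whole marrow and 5.70, 7.00, 1.80 and 3.45 in lineage-negative marrow. The means were 1.89 ± 1.38, 1.93 ± 0.777 and 4.49 ± 2.32, and the groups overlapped. In AML the ratio covered a wider range than in whole marrow, from below 1 in replicates 1 and 5 to above 3 in replicates 3 and 4. Across the 7 AML libraries, Il1b and Il1rn had r = −0.09 (exact permutation p = 0.807) and rho = −0.29 (exact permutation p = 0.556), and r was −0.15 without the 2 libraries farthest from the median of Il1b.

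**Figure D2:**
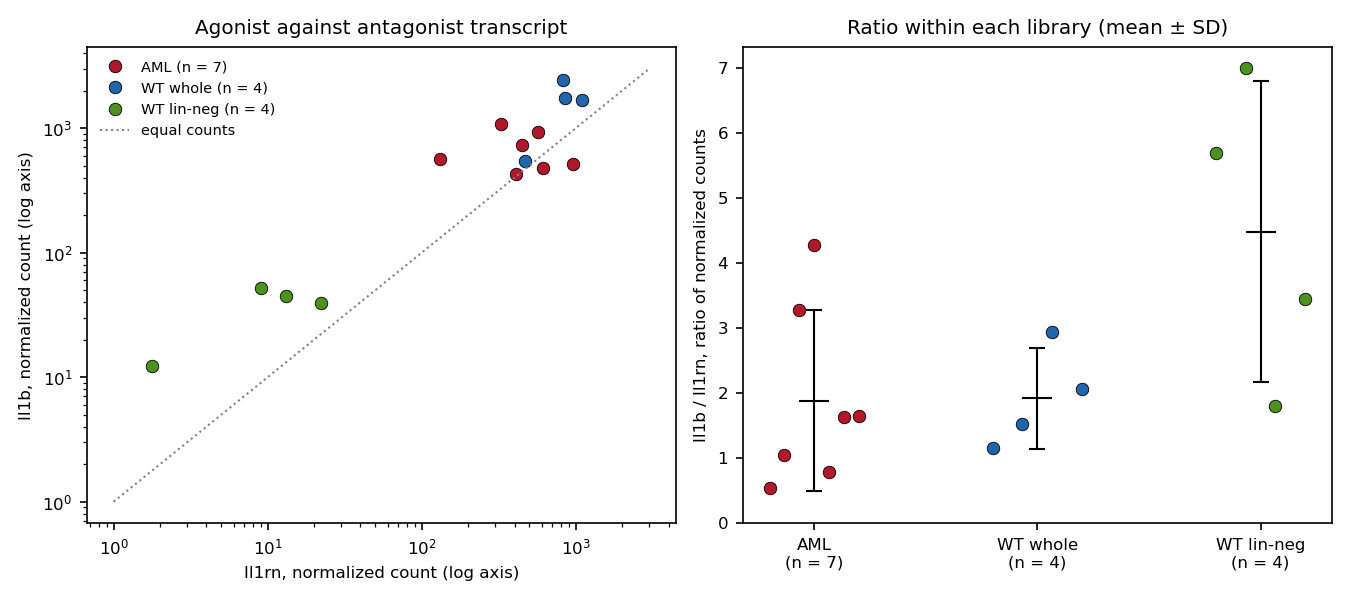
Left, normalized count of Il1b (y axis, log) against Il1rn (x axis, log), 1 point per library, with a dotted line of equal counts. Right, the ratio of Il1b to Il1rn per library (y axis, linear) with the mean ± SD. Lineage-negative marrow sits apart at low counts of both, and the AML ratios run from 0.543 to 4.28.

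Il1a, the cell-associated agonist of the same receptor, was a low transcript. On chromosome 2 from 129141530 to 129151892, it had 2.03 to 13.2 normalized counts in AML with a median of 7.35, 11.7, 18.8, 19.8 and 5.46 in whole marrow, and 2.95, 0.881, 0 and 17.5 in lineage-negative marrow. At or under the floor of 3 reads were 3 AML and 2 lineage-negative libraries, and the groups overlapped in every comparison. AML differed from whole marrow by −1.07 (SE 0.67, limma adjusted p = 0.169) and from lineage-negative marrow by 0.91 (SE 0.67, adjusted p = 0.290), so neither was called. The lineage-negative mean of 5.34 was 1.28 without replicate 4, and without that library AML was called higher (1.72, adjusted p = 0.0330). Lineage-negative marrow was called lower than whole marrow (−1.98, SE 0.76, adjusted p = 0.0285), but not without whole marrow replicate 1, 2 or 3 or lineage-negative replicate 2 or 3 (adjusted p = 0.0598 to 0.122). Whole marrow levels of Il1a compare with 7.14 to 13.5 for the mean olfactory or vomeronasal receptor gene there, and with that mean subtracted Il1a no longer passed the filter.

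The marker genes of neutrophils, the most abundant mature myeloid cells of marrow, were low in lineage-negative marrow, as Il1b and Il1rn were. Of 11 neutrophil markers, all 11 were called higher in AML than in lineage-negative marrow and all 11 lower in lineage-negative than in whole marrow. Between AML and whole marrow none of the 11 was called by limma (0 at an unadjusted p under 0.05), and 1 was lower with TMM scaling. Il1b, unlike these markers, was called lower in AML there. Their summed level was 400714 to 1397520 in AML, which overlapped whole marrow. Per 1000 normalized counts of neutrophil markers there were 0.371 to 1.47 of Il1b in AML and 1.26 to 2.77 in whole marrow, and 2.83 to 10.1 in lineage-negative marrow. The corresponding values of Il1rn were 0.327 to 0.937, 0.939 to 1.22 and 0.497 to 2.93. In bulk RNA, fewer cells of a type and less RNA per cell cannot be told apart.

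Within AML, Il1rn and the summed neutrophil markers had r = 0.82 (exact permutation p = 0.0147, adjusted p = 0.0881 over 6 relations) and rho = 0.71 (exact permutation p = 0.0881), n = 7. Without the 2 libraries farthest from the median of Il1rn, r was 0.32, so the relation rested on those libraries. Il1b and the neutrophil markers had r = 0.27 (exact permutation p = 0.551) and rho = 0.32 (exact permutation p = 0.498).

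Over all 15 libraries, the genes with levels most like Il1b on the log2 scale, among 11270 genes averaging 100 or more, were Fam214b (r = 0.98), Cd300ld (0.97), Lin28a (0.96), 9830107B12Rik (0.96) and Tinagl1 (0.96). Those most like Il1rn were Fpr1, a formyl peptide receptor of neutrophils (0.99), 9830107B12Rik (0.98), S100a8, a calcium-binding protein abundant in neutrophils (0.98), Panct2 (0.98) and Lin28a (0.98). Il1b and Il1rn had r = 0.95 with each other. The 15 points fall in 3 groups that differ in cell content, and no test is given for these values.

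Il18 encodes interleukin-18 and was found on chromosome 9 from 50466127 to 50493140. AML libraries held 18.5 to 124 with a median of 80.9, whole marrow replicates 1 to 4 held 21.5, 44.2, 56.4 and 28.7, and lineage-negative replicates held 13.6, 10.6, 6.17 and 11.7. All AML libraries lay above all lineage-negative libraries, and against whole marrow 5 of 7 lay above and 1, replicate 6, lay below all 4. The log2 difference of AML to lineage-negative marrow was 2.57 (SE 0.43, limma adjusted p = 6.01e-05). That to whole marrow was 0.87 (SE 0.43, adjusted p = 0.0838), with a relative difference of 0.19, and it was called higher without AML replicate 6 (1.16, adjusted p = 0.00750). Lineage-negative marrow was called lower than whole marrow (−1.70, SE 0.48, adjusted p = 0.00461). After subtraction of the olfactory and vomeronasal receptor mean from each library, an alternative added after seeing the data, AML was called higher than whole marrow (1.38, adjusted p = 0.0254) and the call between the reference groups was lost (−1.19, adjusted p = 0.0814).

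Casp1 encodes caspase-1, the protease that matures interleukin-1 beta and interleukin-18, and lies on chromosome 9 from 5298508 to 5307290. The AML libraries ranged from 908 to 1531 with a median of 1235, whole marrow replicates 1 to 4 held 294, 626, 553 and 427, and lineage-negative replicates held 488, 773, 642 and 504. Every AML library exceeded every reference library, while the reference groups overlapped. The mean of 1272 ± 207 in AML was 2.68 times the 475 ± 146 of whole marrow (log2 difference 1.46, SE 0.21, limma adjusted p = 1.45e-05) and 2.11 times the 602 ± 133 of lineage-negative marrow (1.09, SE 0.21, adjusted p = 0.000262). Relative to the median of all genes the difference to whole marrow was 0.78, and with TMM scaling it was 0.85 (adjusted p = 0.000337), under the fold threshold. Without lineage-negative replicate 1 the difference to lineage-negative marrow was 0.99 (adjusted p = 0.00167), also under it. Lineage-negative marrow differed from whole marrow by 0.37 (95% interval −0.12 to 0.86, adjusted p = 0.174), and by −0.22 with TMM scaling.

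Nlrp3, the sensor, is on chromosome 11 from 59432394 to 59457782. AML libraries held 598 to 1039 with a median of 790.0, whole marrow held 293, 449, 353 and 478, and lineage-negative marrow held 529, 114, 179.8 and 198. All AML libraries were above all reference libraries, and lineage-negative replicate 1 was high among its group, whose mean of 255 ± 186 became 164 without it. AML was called higher than whole marrow (1.06, SE 0.29, limma adjusted p = 0.00364) and than lineage-negative marrow (1.90, SE 0.29, adjusted p = 2.18e-05). The difference to whole marrow stood near the fold threshold: relative to all genes it was 0.39, with TMM scaling 0.46 (adjusted p = 0.205), and without whole marrow replicate 1 it was 0.93 (adjusted p = 0.0215). Lineage-negative against whole marrow gave −0.84 (SE 0.33, adjusted p = 0.0307), not called, and −1.27 (adjusted p = 0.000220) without lineage-negative replicate 1, called lower, as with TMM scaling (−1.43).

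Monocyte markers rose in AML beside Casp1 and Nlrp3. All 8 were called higher against both reference groups (6 of 8 against whole marrow with TMM scaling). Their summed level was 76003 to 144030 in AML, 17389 to 37728 in whole marrow and 20646 to 32016 in lineage-negative marrow. Per 1000 normalized counts of these markers, Casp1 was 8.27 to 16.3 in AML, 15.8 to 16.9 in whole marrow and 15.3 to 31.1 in lineage-negative marrow, and Nlrp3 was 5.59 to 10.4, 10.4 to 17.7 and 3.82 to 16.5. The AML means per marker count, 11.8 for Casp1 and 7.66 for Nlrp3, were below those of whole marrow, 16.4 and 14.2, and of lineage-negative marrow, 22.9 and 9.16. Ccr2, Ly6c2 and F13a1 weighed most in the sum, so these values depend mainly on them. Their means were 29740, 27515 and 27280 in AML and 6130, 10027 and 7453 in whole marrow. Within AML, Casp1 and the monocyte markers had r = 0.41 (exact permutation p = 0.396) and rho = 0.07 (exact permutation p = 0.906), and Nlrp3 and the same markers had r = 0.23 (exact permutation p = 0.619) and rho = 0.21 (exact permutation p = 0.662). Casp1 and Nlrp3 had r = −0.54 (exact permutation p = 0.175) and rho = −0.82 (exact permutation p = 0.0341, adjusted p = 0.205), and r was −0.64 without the 2 farthest libraries. The part of cell content in these levels was not tested.

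**Figure D3:**
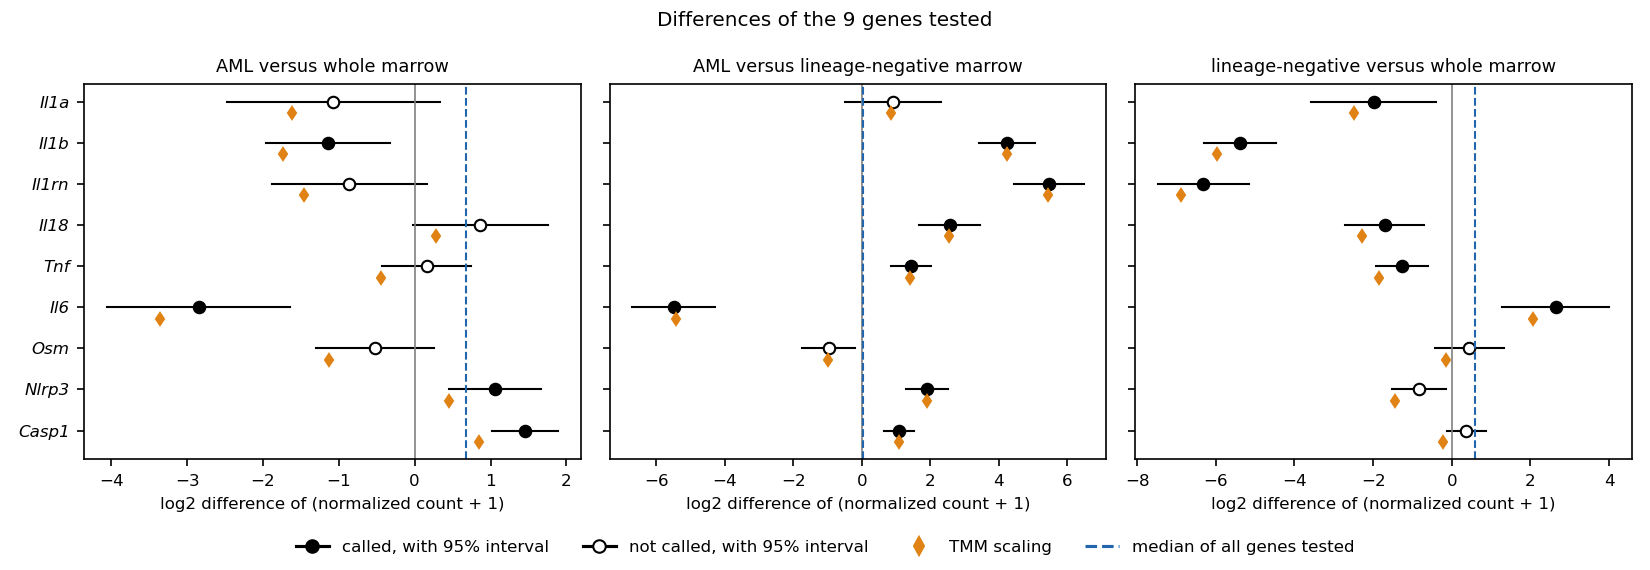
Log2 differences of (normalized count + 1) for the 9 genes tested (y axis) in the 3 comparisons (x axis, log2 units). Circles with 95% intervals are the limma estimates, filled where called, diamonds are the estimates with TMM scaling, and the dashed line is the median of all genes tested. Il1b and Il1rn were at 4.24 and 5.46 and Il6 at −5.49 in AML against lineage-negative marrow.

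Tnf encodes tumour necrosis factor, a cytokine of activated macrophages and monocytes, on chromosome 17 from 35418357 to 35420983. AML libraries ranged from 159.7 to 503 with a median of 415, whole marrow held 217, 362, 317 and 347, and lineage-negative marrow held 159.8, 121, 121 and 109. AML and whole marrow overlapped over most of their range, and 6 of 7 AML libraries were above all lineage-negative libraries, AML replicate 4 being the exception. Against lineage-negative marrow the log2 difference was 1.42 (SE 0.28, limma adjusted p = 0.000322). Against whole marrow it was 0.16 (95% interval −0.42 to 0.74, adjusted p = 0.632), with a relative difference of −0.51 and −0.44 with TMM scaling (adjusted p = 0.177), so that its sign depended on the scaling. Lineage-negative marrow was called lower than whole marrow (−1.27, SE 0.32, adjusted p = 0.00170), with groups that did not overlap.

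Il6 encodes interleukin-6 and lies on chromosome 5 from 30218112 to 30224979. In AML replicates 1 to 7 its normalized count was 1.27, 0, 8.58, 0.845, 3.78, 7.40 and 0. Whole marrow replicates 1 to 4 held 15.3, 21.4, 19.8 and 23.2, and lineage-negative replicates held 103, 116, 245 and 92.7. The groups did not overlap, with AML lowest and lineage-negative marrow highest, and 4 of 7 AML libraries were at or under the floor of 3 reads. Il6 passed the filter through the reference libraries alone, since no AML library reached 10. The means were 3.13 ± 3.57 in AML, 19.9 ± 3.40 in whole marrow and 139 ± 71.2 in lineage-negative marrow. AML was called lower than both, with a difference of −2.85 to whole marrow (SE 0.58, limma adjusted p = 0.000357) and of −5.49 to lineage-negative marrow (SE 0.58, adjusted p = 2.32e-07) on the log2(normalized count + 1) scale, which understates differences of low counts. Lineage-negative marrow was higher than whole marrow by 2.64 (SE 0.65, adjusted p = 0.00161), a call lost with a pseudocount of 0.1 (2.70, adjusted p = 0.0552). The whole marrow levels compare with 7.14 to 13.5 for the mean olfactory or vomeronasal receptor gene there, 13.5 being that of replicate 1. With that mean subtracted, AML against whole marrow was −2.02 (adjusted p = 0.00956). AML and whole marrow then overlapped. AML replicates 3, 5 and 6, with receptor means of 0.552, 1.33 and 3.81, lay above whole marrow replicate 1.

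Mast cell and basophil markers other than Kit had group means in the same order as Il6. Kit was higher in AML, at 1057 ± 437, than in whole marrow, at 749 ± 231. All 7 were called lower in AML than in lineage-negative marrow, 6 of 7 lower than in whole marrow, and all 7 higher in lineage-negative than in whole marrow (6 of 7 with TMM scaling). Of these markers, Kit and Gata2 are also progenitor markers. Their summed level was 1195 to 4778 in AML, 3299 to 7971 in whole marrow and 31096 to 50442 in lineage-negative marrow, and none was at 0 in a whole group. Kit weighed more in the AML sum: its median was 959 in AML and 855 in whole marrow, beside median sums of 2323 and 6402. Per 1000 normalized counts of these markers, Il6 was 0 to 4.39 in AML, 2.69 to 4.62 in whole marrow and 2.60 to 4.86 in lineage-negative marrow. Because of Kit, the AML values are not on the same footing as the others. This pairing was chosen after the values were seen, and the part of these cells in the Il6 level was not tested.

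**Figure D4:**
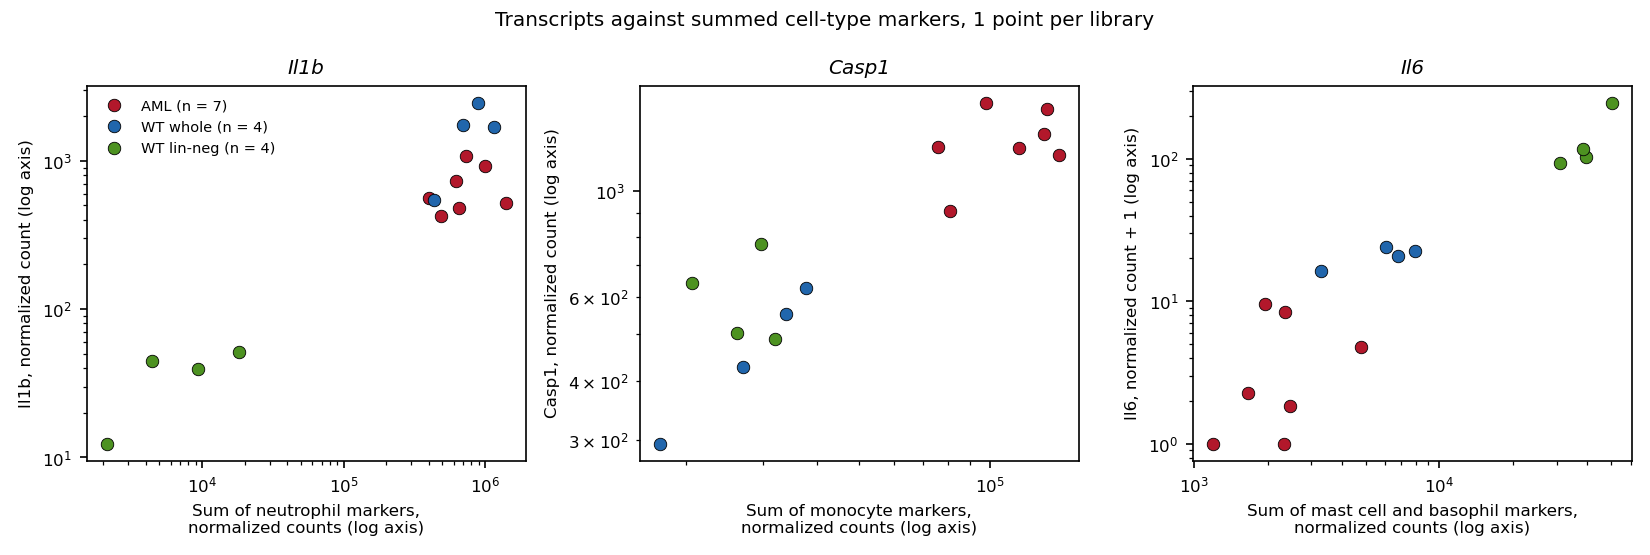
Normalized counts of Il1b, Casp1 and Il6 (y axes, log, with 1 added for Il6) against the summed normalized counts of neutrophil, monocyte, and mast cell and basophil markers (x axes, log), 1 point per library. Il1b and the neutrophil markers are both low in lineage-negative marrow. Casp1 and the monocyte markers are both highest in AML, and Il6 and the mast cell and basophil markers are both highest in lineage-negative marrow.

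Osm encodes oncostatin M, a cytokine of the interleukin-6 family, on chromosome 11 from 4186420 to 4191026. AML libraries held 246 to 1058 with a median of 352, whole marrow held 281, 620.4, 921 and 643, and lineage-negative marrow held 1437, 541, 964 and 481. The groups overlapped throughout, although 6 of 7 AML libraries were below all lineage-negative libraries, the exception being replicate 6. Neither difference of AML was called: it was −0.52 (SE 0.37, limma adjusted p = 0.227) to whole marrow and −0.97 (SE 0.37, adjusted p = 0.0390) to lineage-negative marrow, the latter just under the fold threshold. The difference to lineage-negative marrow was called without AML replicate 6 (−1.21, adjusted p = 0.00470), without AML replicate 1 (−1.02, adjusted p = 0.0405) and without lineage-negative replicate 2 or 4 (−1.15 and −1.20). With TMM scaling the difference to whole marrow was −1.13 (adjusted p = 0.0182) and was called lower. The reference groups differed by 0.45 (95% interval −0.43 to 1.33, adjusted p = 0.358), and by −0.14 with TMM scaling.

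Il10 encodes interleukin-10, which restrains inflammatory cytokine production, and lies on chromosome 1 from 130947582 to 130952711. AML replicates 1 to 7 had 7.63, 15.7, 41.7, 1.69, 1.89, 29.6 and 2.16 normalized counts. Whole marrow had 0.898, 0, 2.09 and 1.36, all at or under the floor of 3 reads, and lineage-negative marrow had 0, 0, 0 and 3.92. The only libraries at 10 or more were AML replicates 2, 3 and 6, while AML replicates 4, 5 and 7 were at or under the floor and overlapped the reference libraries. In a limma fit without the filter on low values AML was called higher than whole marrow (2.22, SE 0.77, adjusted p = 0.0201) and than lineage-negative marrow (2.59, SE 0.77, adjusted p = 0.0196), on a scale that depends on the pseudocount.

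Levels of different genes were compared per kilobase of exon. In AML, Casp1 was the highest of the 10 with 849 normalized counts per kb, followed by Il1b with 354, Tnf with 223, Nlrp3 with 201 and Osm with 195, the last 3 within their spread of each other. In whole marrow Il1b led with 842 ± 413 per kb before Casp1 with 317. In lineage-negative marrow Casp1 with 402 ± 89.0 and Osm with 377 ± 195 led and did not differ beyond their spread, and Il1b, with 19.5 per kb, was below Il6, with 57.3. Il10, Il1a and Il6 were the 3 lowest in AML, at 10.9, 3.36 and 1.29 per kb.

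Most of the other inflammasome genes were higher in AML, as Casp1 was. Of 21 sensors, adaptors, executioners and regulators, 16 were called higher and 1 lower in AML than in whole marrow, with a median log2 difference of 1.39 against 0.67 over all genes, beside 27.3% and 11.3% of all genes. With TMM scaling 8 were higher and 1 lower, beside 6.01% and 15.1%, and with quantile scaling 6 and 2. Against lineage-negative marrow 15 were higher and 1 lower, beside 17.7% and 12.5%, with a median of 1.30 against 0.02 over all genes. Beside the 8 monocyte markers described above, 7 of 8 dendritic cell markers were called higher in AML than in whole marrow (5 with TMM scaling) and 6 of 8 higher than in lineage-negative marrow. Their summed level was 2695 to 19791 in AML, 1221 to 1976 in whole marrow and 2946 to 3600 in lineage-negative marrow. Erythroid and B cell markers went the other way against whole marrow. All 9 erythroid markers (median log2 difference −7.90) and all 7 B cell markers (−2.71) passed as lower in AML, also with TMM scaling. Summed erythroid markers were 397 to 31990 in AML, 803780 to 1982790 in whole marrow and 5967 to 49224 in lineage-negative marrow. Summed B cell markers were 494 to 6416, 3903 to 8450 and 308 to 547. The part of any of these cells in the inflammasome genes was not tested. P2rx7, the ATP-gated channel whose opening can trigger NLRP3, stood at 1114 ± 266 in AML and 224 ± 77.1 in whole marrow (2.35, SE 0.23, limma adjusted p = 3.64e-07). Nlrp1b, another sensor, held 292 ± 130 in AML, 60.3 ± 11.1 in whole marrow and 21.1 ± 11.4 in lineage-negative marrow. Its differences were 2.17 (SE 0.32, adjusted p = 2.14e-05) and 3.75 (SE 0.32, adjusted p = 1.59e-08).

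Naip6, of the sensor family for bacterial flagellin and secretion systems, was higher in AML than in whole marrow by 1.99 (adjusted p = 6.04e-06). Reads of the Naip and Nlrp1 paralogs may have been divided between copies, so their separate values are uncertain. Against lineage-negative marrow the widest differences by the naming rule were Nlrp12, a regulator of NF-kB signalling (4.58, SE 0.42, adjusted p = 3.27e-08), Nlrp1b, and Casp4, the caspase that senses cytosolic lipopolysaccharide (2.32, SE 0.25, adjusted p = 3.17e-07). Nlrp12 was at 646 ± 360.5 in AML and 783 ± 227 in whole marrow, a difference within their spread (−0.42, adjusted p = 0.385). The gene called lower was Nlrp6 in both comparisons, at 0 to 4.72 normalized counts in AML 9.39 to 22.8 in whole marrow and 7.05 to 22.7 in lineage-negative marrow. No AML library reached 10, so it passed the filter through the reference libraries alone. Its whole marrow level is near the 7.14 to 13.5 of the olfactory and vomeronasal receptor genes, and with that mean subtracted no gene of the list was called lower than in whole marrow by limma (0 at an unadjusted p under 0.05). A mean of at least 50 left it out of the test. Pycard, the adaptor, had 2520 ± 437 in AML, 706 ± 228 in whole marrow and 987 ± 157 in lineage-negative marrow, and Gsdmd, the pore-forming executioner, had 2251 ± 326, 863 ± 177 and 921 ± 186. Both lay outside the naming rule and were chosen after their values were seen.

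**Figure D5:**
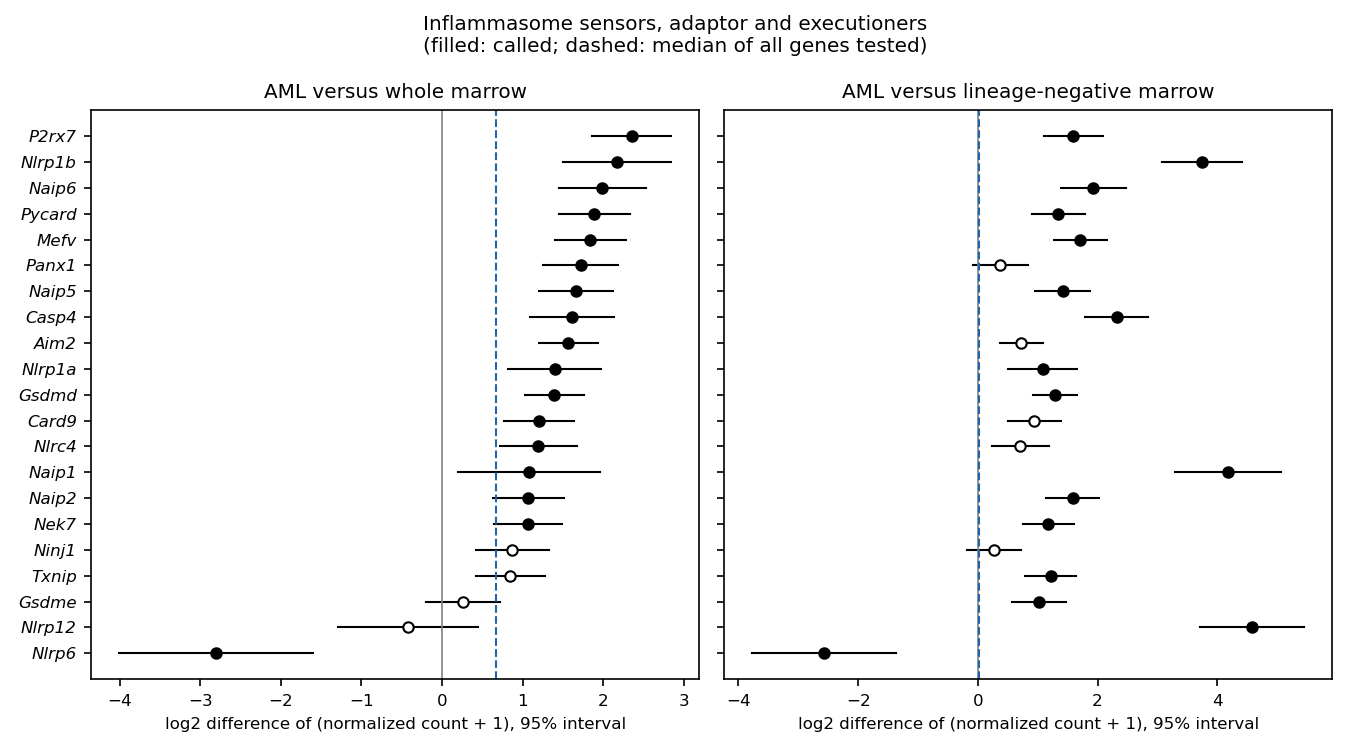
Log2 differences of (normalized count + 1) with 95% intervals (x axis) of 21 inflammasome genes (y axis) for AML against whole marrow and AML against lineage-negative marrow. Filled circles were called and the dashed line is the median of all genes tested. Most intervals lie above 0 in both panels, and Nlrp6 lies below 0 in both.

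A list of 17 genes held receptors and inhibitors of these cytokines, and also Il1rl1, a receptor of another cytokine, and the protease gene Adam17. Of the 17, 8 were called higher, Adam17 among them, and 2 lower in AML than in whole marrow (6 and 2 with TMM scaling). Over all genes these shares were 27.3% and 11.3%. The median of the list was 0.82, close to the 0.67 of all genes. Against lineage-negative marrow 9 were higher and 2 lower, beside 17.7% and 12.5%, with a median of 1.12 against 0.02. The 3 with the widest differences to whole marrow were Lifr, Il6st and Il10ra. Lifr, the receptor chain for leukaemia inhibitory factor that also serves oncostatin M, was 2040 ± 972 in AML and 272.5 ± 94.8 in whole marrow (2.85, SE 0.30, limma adjusted p = 7.01e-07). Il6st, which encodes the shared chain gp130, was 6776 ± 1838 and 1213 ± 388 (2.49, SE 0.26, adjusted p = 6.59e-07). Il10ra, the ligand-binding chain for interleukin-10, was 4519 ± 1762 and 983 ± 333 (2.15, SE 0.32, adjusted p = 2.14e-05). The 2 lower genes were Osmr, the oncostatin M receptor, at 9.15 ± 4.22 in AML and 42.4 ± 2.04 in whole marrow (−2.21, adjusted p = 0.00962), and Il1rl1, the interleukin-33 receptor (−2.12, adjusted p = 0.000326). Osmr met the filter by its whole marrow libraries, at 39.7 to 44.2, whereas its AML median of 8.91 was under the minimum of 10. The level of Osmr in whole marrow compares with 7.14 to 13.5 for the olfactory and vomeronasal receptor genes, and with that mean subtracted the list still had 2 genes called lower.

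Against lineage-negative marrow, the decoy receptor Il1r2 differed most, by 5.66 (SE 0.58, limma adjusted p = 1.54e-07). Its AML libraries ranged from 287 to 5411 with a median of 429, the highest being replicate 6, while the lineage-negative mean was 13.7 ± 6.83. Lifr was higher by 4.56 (SE 0.30, adjusted p = 5.06e-10). The 2 lower genes were Il1rl1 (−3.66, SE 0.43, adjusted p = 8.78e-07), at 127 ± 145 in AML and 1186 ± 192 in lineage-negative marrow, and Il1r1, the signalling interleukin-1 receptor (−1.38, adjusted p = 0.00143), at 102 ± 46.7 and 246 ± 43.7. Il1r1 was 96.5 ± 24.05 in whole marrow, which differed from AML by less than their spread (−0.02, adjusted p = 0.958).

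Of 27 genes that carry signals from the interleukin-1 and TNF receptors to NF-kB, 17 were called higher and 0 lower in AML than in whole marrow by limma, and 0 were lower at an unadjusted p under 0.05. Their median of 1.05 compares with 0.67 over all genes, and the share of 27.3% over all genes is set beside the 17 of 27. The count was 3 with TMM scaling (6.01% over all genes), 0 with quantile scaling and 9 without whole marrow replicate 1. Against lineage-negative marrow 9 were higher and 0 lower, also 0 at an unadjusted p under 0.05, with a median of 0.52 against 0.02 over all genes, of which 17.7% were called higher. The kinase Ikbkb (1.70, SE 0.19, adjusted p = 1.17e-06) and the transcription factor subunits Relb (1.66, SE 0.35, adjusted p = 0.000466) and Nfkb2 (1.63, SE 0.23, adjusted p = 1.49e-05) differed most from whole marrow. These 3 remained called with TMM scaling and were at 0.93, 0.91 and 0.85, under the fold threshold, with quantile scaling. Relb (2.99, SE 0.35, adjusted p = 8.36e-07), the atypical IkB protein Bcl3 (2.56, SE 0.31, adjusted p = 1.42e-06) and the receptor adaptor Myd88 (1.96, SE 0.22, adjusted p = 5.22e-07) differed most from lineage-negative marrow. Relb was 296 to 423 in 6 AML libraries and 1178 in AML replicate 3.

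Of 25 other cytokines of activated myeloid cells, 16 passed the filter. Against whole marrow 5 were called higher in AML and 0 lower by limma (0 lower at an unadjusted p under 0.05), with a median of 0.48 that was below the 0.67 of all genes. The 5 of 16 stand beside 27.3% of all genes, and with TMM scaling 1, Tnfsf13, was higher, beside 6.01%. With quantile scaling 3 were higher and 2 lower. Tnfsf13, the B cell survival factor APRIL, was 799.7 ± 153 in AML and 206 ± 58.1 in whole marrow (1.97, SE 0.32, adjusted p = 4.58e-05). Tgfb1 (1.52, adjusted p = 2.28e-05) and Tnfsf12 (1.38, adjusted p = 0.00808) were also called, but not with TMM scaling, at 0.91 and 0.80. Against lineage-negative marrow 8 were higher and 3 lower, beside 17.7% and 12.5% of all genes, the 3 being Lif, Csf1 and Il12a. Tnfsf13b, the related factor BAFF, rose most, by 6.20 (SE 0.41, adjusted p = 5.06e-10), followed by Il1f9, which encodes interleukin-36 gamma (6.09, SE 0.62, adjusted p = 1.32e-07), and Ltb, lymphotoxin beta (2.66, SE 0.35, adjusted p = 4.54e-06). Il1f9 had 795 ± 652 normalized counts in AML, 1017 ± 336 in whole marrow and 10.9 ± 8.43 in lineage-negative marrow, an order of group means shared with Il1b and Il1rn.

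The groups did not overlap for 2 higher genes and 1 lower gene of the 9 in AML against whole marrow, beside 35.8% and 7.88% of all genes. In AML against lineage-negative marrow this held for 5 higher and 1 lower, beside 17% and 17.6%, and in lineage-negative against whole marrow for 1 higher and 4 lower, beside 41.1% and 16.6%. On the deposited values, Il6 was the gene whose 3 groups were all separate from each other. For AML and whole marrow this was lost when the olfactory and vomeronasal receptor mean was subtracted.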

How the data were processed

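RNA sequencing was analysed for 15 mouse bone marrow libraries. RNA was extracted with TRIzol and prepared as TruSeq Stranded Total RNA, per the labels' protocols. The deposited unit is signal: the authors divided reads per gene by a DESeq2 size factor of the poscounts type, per the file's name. STAR, Partek, DESeq2 and the build mm10 are named in the submitters' processing notes; their versions and the strand used in counting are not given in the sources used here. Of 38066 gene identifiers found in a GRCm38 annotation, 37557 had the same length there and 861 the same start, so gene positions are as in the table and not on mm10, while promoters are from RefSeq on GRCm38.p6. Only exonic lengths were taken from the annotation. Without strand, overlapping genes are not separated.

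Groups came from the sample titles. Low values were whole multiples of a step in 78.3% to 84.8% of cases per library (tolerance 0.02), so whole reads were not recovered and no count test was run. Depth was the total divided by this step. Genes with at least 10 in at least 4 libraries (18941) entered a limma 3.58.1 fit of 3 group means in R 4.3.3, on log2(normalized count + 1) with a mean-variance trend, two-sided, with Benjamini-Hochberg adjustment over all genes kept. TMM scaling was written in R for this purpose. On simulated data for AML against whole marrow, 188 of 200 changed genes and 4 unchanged genes among 18148 were called. Apart from the 200 genes, all groups were simulated with the same means, 1 setting of spread and no general shift. This checks the procedure and gives no error rate for the data, where the median gene differed by 0.67 (log2). The floors of 3 reads take in counting error alone, because without molecular identifiers several reads can stem from 1 molecule.

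The 10 genes and the gene lists were chosen with earlier results of these data known. All 10 are described. From each other list and comparison with AML, 3 called genes are named, those with the widest difference and a mean of at least 50, fewer where fewer were called, and all members of a count of 5 or fewer where it is spelled out. For the inflammasome list against lineage-negative marrow, Naip1 had too low a mean. For likeness, 5 genes are named for Il1b and for Il1rn. Of the listed cytokines, 2 symbols had no row. Alternatives were pseudocounts of 0.1 and 5, no filter, a mean minimum of 50, quantile or TMM scaling, replicate number as a block and leaving out each library. Added after seeing the data were subtraction of the receptor-gene mean and leaving out AML replicates 5 and 6.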

Additional observations from a re-analysis of the deposited data

Results flagged for a closer look

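In 30 groups of 4 to 7 libraries (10 genes in 3 groups), the highest or lowest library was compared with its nearest neighbour by the gap divided by the range, at Dixon's 95% limit. Chance marks about 1 group in 20 where values are normally distributed, and 4 groups of the 30 were marked. Normalized counts were used without a log, some of them near 0, and all 4 marks were of a highest library. The 4 of 30 can for this reason not be set against that share. Il1a stood at 17.5 normalized counts in lineage-negative replicate 4, with the next library at 2.95. Il10 in the same library was 3.92 and 0 in the other 3, a level of a few reads. Il6 stood at 245 in lineage-negative replicate 3, with the next at 116. Osm was 1058 in AML replicate 6, with the next at 478. AML replicate 6 was also the lowest AML library for Il18, at 18.5, and for Nlrp3, at 598, and the highest for Casp1, at 1531.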

How the results depend on the processing

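Of 690 member values under alternatives, 649 kept their direction and side of the threshold, 19 gained a call, 15 lost it and 7 changed sign. Those 7 were uncalled: Tnf in AML against whole marrow was −0.44 with TMM scaling, −0.63 with quantile scaling and −0.0036 without whole marrow replicate 1. Casp1 in lineage-negative against whole marrow was −0.22 with TMM and −0.38 with quantile scaling, and Osm there was −0.14 and −0.28. The 2 higher members in AML against whole marrow became 0 with TMM and 0 with quantile scaling by limma (1 at an unadjusted p under 0.05 in each), and the 2 lower became 4 and 4, or 1 with a mean of at least 50. In AML against lineage-negative marrow the 1 lower member, Il6, became 0 with a mean of at least 50 (1 at an unadjusted p under 0.05), and the count was 2 with quantile scaling, with the replicate block and without AML replicates 5 and 6. In lineage-negative against whole marrow the 1 higher member became 0 with a pseudocount of 0.1 (1 at an unadjusted p under 0.05) and 0 with a mean of at least 50 (0), and the 5 lower became 3 with a mean of at least 50 and 3 with the receptor-gene mean subtracted, where Il1a no longer passed the filter. Tnf in AML against whole marrow ran from −0.0036 to 0.34 when each library was left out. Leaving out each library gave 1 to 3 higher and 1 to 2 lower for AML against whole marrow, 5 to 7 and 1 to 2 for AML against lineage-negative marrow, and 1 to 1 and 4 to 6 between the reference groups. The causes were not tested.

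TMM scaling moved the share of calls in the higher direction from 70.8% to 28.4% in AML against whole marrow and from 65.8% to 37.0% between the reference groups. Same-numbered libraries of different groups had correlations of −0.29 to 0.17 in their deviations, against −0.24 to 0.25 for other pairs. Whole and lineage-negative libraries of the same number had 0.09, 0.17, −0.01 and −0.01 for numbers 1 to 4. Such correlations cannot tell whether these libraries came from the same animals. With the replicate block, members called higher and lower were 3 and 2, 6 and 2, and 1 and 5 in the 3 comparisons. Depth limits Il10, Il6 and Il1a, which were at or under the floor of 3 reads in 3, 4 and 3 AML libraries.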

Other observations

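Il12b, Ccl22 and Ifng, genes of T cell and dendritic cell responses, varied between AML libraries, and they were chosen after their values were seen. Il12b, a subunit of interleukin-12, was at 100.5 normalized counts in AML replicate 3, at 1.23 to 20.2 in the other AML libraries, at 0.898 to 4.09 in whole marrow and at 0 to 2.61 in lineage-negative marrow. Ccl22, a chemokine of activated dendritic cells, was at 235 in AML replicate 3, 1.23 to 33.4 in the other AML libraries and 9.38 to 20.6 in whole marrow. Ifng, the interferon of T and NK cells, was at 128 in AML replicate 6, 2.16 to 46.6 in the other AML libraries and 3.59 to 12.3 in whole marrow. AML replicate 3 was also the library with the most Il1b, Il6 (about 7 reads), Il10 and Relb in the AML group. It also had the highest AML sums of dendritic cell (19791), B cell (6416), erythroid (31990) and macrophage (8819) markers. Its sum of monocyte markers was the lowest in AML (76003). AML replicate 6 had the highest AML sum of T and NK cell markers, 4587, beside 3978 in replicate 3. The part of cell content in these levels was not tested. No groups were formed from these levels and no test was made.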
